A study of Mus musculus with 18 samples.

Results

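Ribosome footprints of the forelimb bud (FL) were compared with those of the neural tube (NT), gene by gene, in 6 of the 18 libraries of the series, 3 from each tissue. The members were chosen by readout and tissue alone: every gene of the NT and FL table was included, 11231 in all, and the 6 RNA-Seq libraries of the same tissues were set beside them. Both tissues came from wild-type FVB mouse embryos at E11.5, were microdissected from the same embryos in medium with cycloheximide, which stalls elongating ribosomes. The methods give dissociation with papain for NT, apart from tubes that were snap frozen for some experiments, and do not state it for FL. The NT piece ran from the level of the hind limb up to the rhombomeres and so spans hindbrain and spinal cord. Cells of a preparation were divided, with one share used for Ribo-Seq and the other for poly(A) RNA-Seq. No genetic change or drug separated the groups, so the comparison is of tissue with tissue, and each library holds all cell types of the dissected piece. In such bulk samples, fewer cells of a type and less RNA per cell cannot be told apart. The study calls the 3 replicates biological. It does not state how many embryos each holds or what a replicate number marks.

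In Ribo-Seq, RNase digests the mRNA that ribosomes do not cover, and the protected fragments (RPFs) are sequenced. The RPFs of a gene reflect both its mRNA level and how many ribosomes sit on each mRNA, and so stand for its total ribosome output. They do not separate the pair, and since they are summed over the coding sequence (CDS) without correction for its length, values are compared here between tissues for the same gene, never between genes. The E11.5 neural tube holds dividing progenitors along its lumen and newly born neurons that send out axons. The limb bud is a core of proliferating mesenchyme, patterned by Hox genes along its axis and by FGF and Shh signals, with muscle and vessel precursors moving in and an ectodermal jacket. All values are normalized reads, that is reads per gene divided by an effective library size, and all differences are FL minus NT on the log2(normalized reads + 1) scale, which understates the differences of low genes.

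Depth was 16710643 to 31993255 reads on genes in NT Ribo-Seq and 12967893 to 17231298 in FL, against 24555103 to 33061460 in RNA-Seq. Replicate 3 stood apart in Ribo-Seq in both tissues. Over 11231 genes, the log2 values of NT replicates 1 and 2 correlated at r = 0.989 and those of FL replicates 1 and 2 at r = 0.976, while NT replicate 3 reached 0.933 and 0.934 with its own tissue and FL replicate 3 reached 0.886 and 0.896. NT and FL libraries correlated at 0.701 to 0.707 within replicates 1 and 2 and at 0.8 within replicate 3. These are correlations across genes, which are not independent replicates. In RNA-Seq, libraries of 1 tissue correlated at 0.946 to 0.987 and no replicate number stood apart in both tissues.

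The split had a direction as well as a size. Of the 2995 genes with at least 2-fold more RPFs in NT in the mean of replicates 1 and 2, 979 were at least 2-fold higher in NT in replicate 3 too, and 403 were at least 2-fold higher in FL there. Of the 2755 genes at least 2-fold higher in FL in replicates 1 and 2, 675 were so in replicate 3 and 81 were at least 2-fold higher in NT. Between replicates 1 and 2, 11 genes were at least 2-fold higher in FL in the first and in NT in the second, and 7 the other way round. Of mRNAs, 2 genes were at least 2-fold higher in FL in replicates 1 and 2 and in NT in replicate 3, and 20 the reverse. Lists are therefore given by replicate or with and without replicate 3. In the plot of differences by replicate, neural markers and FGF target genes lay near the diagonal, while ribosomal protein genes and cell division genes lay far from it.

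**Figure D1:**
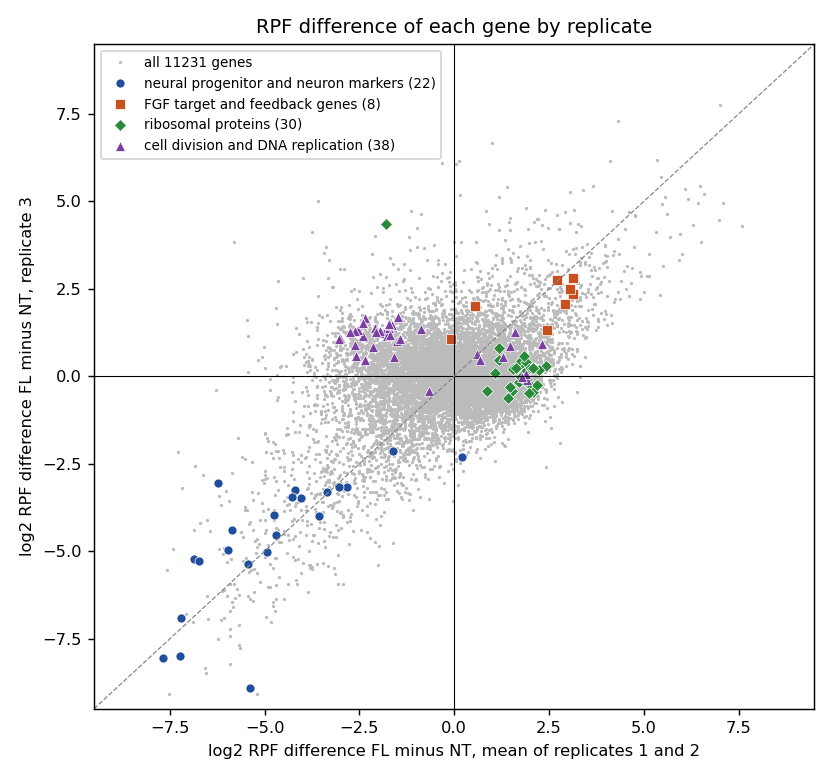
Log2 RPF difference (FL minus NT) of each of 11231 genes in the mean of replicates 1 and 2 (horizontal) and in replicate 3 (vertical), with members of 4 gene lists coloured and the dashed line marking equal differences. Neural markers lay near the line, ribosomal protein genes had a median of 1.84 in replicates 1 and 2 against 0.13 in replicate 3, and cell division genes of -1.72 against 1.12.

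By limma with Benjamini-Hochberg adjustment over all genes, 1520 genes (13.5%) had more RPFs in FL and 1654 (14.7%) more in NT. The median log2 difference was 1.47 among the former and -1.84 among the latter, against 0.038 over all genes, and 1335 and 1511 of the calls were at least 2-fold. All 3 FL values lay above all 3 NT values in 2420 genes (21.5%), and all 3 NT values above all 3 FL values in 2367 (21.1%). Of the calls, 1495 for FL and 1613 for NT were free of overlap, and 25 and 41 pointed the other way in replicate 3. For mRNA, 1836 genes (16.3%) were higher in FL and 2012 (17.9%) in NT, with smaller medians of 1.04 and -1.14. Without replicate 3 in either tissue, a fit chosen after that replicate was seen to stand apart, 4434 genes (39.5%) had more RPFs in FL and 4137 (36.8%) more in NT. Leaving out FL replicate 3 alone gave 3438 and 3314 genes. Counts fell to 649 and 960 without NT replicate 1, to 660 and 937 without NT replicate 2, to 741 and 1055 without FL replicate 1 and to 630 and 985 without FL replicate 2.

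Symbols were at hand for 3280 of the genes (29.2%), 454 of those called for FL and 672 of those called for NT. Of these, 1996 came from the study's table of genes whose translation efficiency (TE, RPFs per mRNA) differed between tissues, a table made from these same libraries, and 1284 from its tables on other questions. The named genes are thus no random sample of the genome, and the count of a list drawn from them is not independent evidence of its direction. Measured members of a list are those with a symbol, and others may be among the unnamed genes.

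In the NT direction, the 12 genes named by rank had log2 differences of -7.80 to -5.91, and among them were genes of radial glia, neuronal filaments and axon guidance. They were the largest of 610 named genes that passed the test without overlap between tissues and averaged 100 normalized reads or more. Genes without a symbol, described last, reached -8.05.

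Fabp7 (chr10:57784881-57788450, GRCm38), the fatty acid binding protein of radial glia, stood at 9218, 9343 and 8134 normalized reads in NT replicates 1, 2 and 3 and at 54.5, 36.2 and 29.9 in FL. The tissues were far apart in every replicate, and its log2 difference of -7.80 ± 0.28 (SE; n = 3 and 3 here and below) had a limma adjusted p = 1.87e-05. With each library or replicate left out in turn, the difference lay between -8.03 and -7.61. Ina (chr19:47014698-47025327), the neuronal intermediate filament alpha-internexin, stood at 24664, 25891 and 39643 in NT and 266, 107 and 154 in FL, a difference of -7.48 ± 0.37 (limma adjusted p = 2.36e-05). Nefm (chr14:68082590-68124846), the medium neurofilament subunit, was at 21426, 21533 and 17923 in NT and 196, 107 and 148 in FL (-7.11 ± 0.28, limma adjusted p = 1.87e-05). The FL values of both filament genes stood far below their lowest NT value.

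Several of the others guide axons or migrating cells. Robo3, the receptor that lets commissural axons cross the midline, was at 9784, 10281 and 15598 in NT and 221, 256 and 31.4 in FL (-6.57 ± 0.73, limma adjusted p = 5.10e-04). Its FL values parted by replicate, so that the difference was -5.39 in replicates 1 and 2 and -8.91 in replicate 3. Slit1, a secreted repellent that binds Robo receptors, stood at 10515, 10594 and 16598 in NT and 172, 76.7 and 212 in FL (-6.43 ± 0.41). Reln, the secreted protein reelin that positions migrating neurons, was at 15257, 14695 and 13399 in NT and 165, 119 and 342 in FL (-6.25 ± 0.38). Chl1, an adhesion molecule of the L1 family, was at 6834, 6304 and 5604 in NT and 33.7, 91.6 and 149 in FL (-6.31 ± 0.49). Completing the 12 were the kinase anchor Akap6 (-6.89 ± 0.41), the transporter family member Slco5a1 (-6.58 ± 0.65), the PHD finger gene Phf21b (-6.09 ± 0.27), the kinase gene Map3k13 (-6.03 ± 0.52) and the membrane protein gene Tmem145 (-5.91 ± 0.85). For Tmem145 the FL values were low and scattered, at 1.6, 32 and 13.4, against 560.2, 546 and 879.9 in NT. The mRNA of all 12 was also called higher in NT, with log2 differences from -7.07 for Robo3 to -3.10 for Map3k13.

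**Figure D2:**
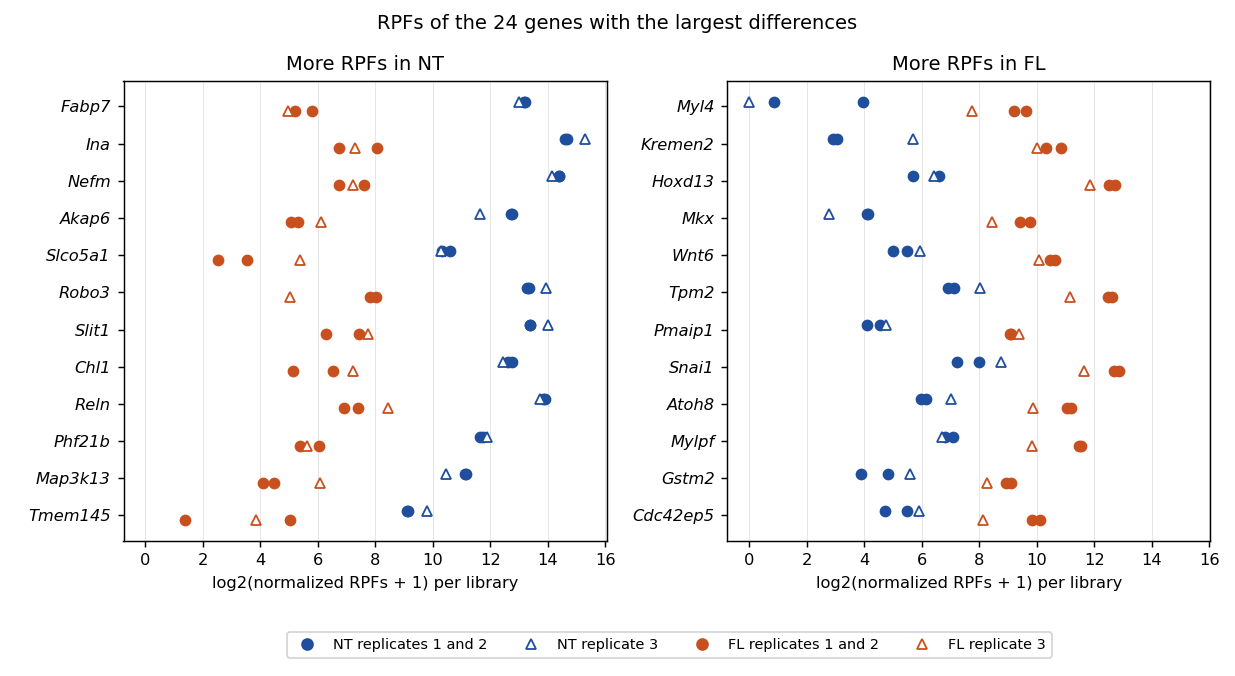
RPFs per library, as log2(normalized reads + 1), of the 12 named genes with the largest difference in each direction (left, more in NT; right, more in FL), with circles for replicates 1 and 2 and open triangles for replicate 3. The tissues do not overlap, as the rule for these genes requires, and FL values ran from 1.6 normalized reads (Tmem145) in the left panel to 7389.6 (Snai1) in the right.

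Most members of each neural list had more RPFs in NT. Of 22 measured neural progenitor and neuron markers, 21 had more RPFs in NT and none in FL, against 14.7% of all genes called for NT, and the median difference was -4.80, against 0.038 over all genes. It was -4.52, -5.23 and -4.20 in replicates 1, 2 and 3. Together they held 1.30% to 1.45% of all normalized RPFs in NT libraries and 0.0593% to 0.0989% in FL libraries. Of the 22 symbols, 4 did not come from the TE table, and all 4 were called for NT (median -4.80). The list was chosen with earlier results of these data known, so these values do not test the tissue labels. The same 22 genes had a median of -3.44 in mRNA, with 21 called for NT, against 17.9% of all genes. Ncam1, the neural cell adhesion molecule, was at 36933, 36988 and 48074 in NT and 4378, 4602 and 5348 in FL (-3.08 ± 0.23) and differed alike in every replicate. The exception in RPFs was Hes6, a Hes family factor of committed neural precursors, at 3256, 3393 and 7294 in NT and 3625, 4060.3 and 1477 in FL. Its values overlapped between tissues, the RPF difference being 0.21 in replicates 1 and 2 and -2.30 in replicate 3 (-0.63 ± 0.47, limma adjusted p = 0.33), while its mRNA was higher in NT by 1.80 (-1.80, limma adjusted p = 2.77e-05).

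Of 16 neuronal cytoskeleton genes, 11 were higher in NT and none in FL, against 14.7% and 13.5% of all genes, and without replicate 3 it was 11 and 4, against 36.8% and 39.5% (median -3.81; -3.96, -3.96 and -2.88 by replicate). Map1b, a microtubule-associated protein of axons, stood at 110154, 109326 and 51516 in NT and 1432, 1492 and 6266 in FL, differing by -6.23 in replicates 1 and 2 and -3.04 in replicate 3 (-5.17 ± 0.60, limma adjusted p = 6.05e-04). Dcx, which stabilizes microtubules in migrating neurons, was at 16928, 17087 and 14041 and 757, 571 and 605 and differed alike in all replicates (-4.64 ± 0.23). Kif5a, a motor of axonal transport, differed by -5.34 ± 0.48. The 5 not called had the shortest CDSs of the list. Of these Basp1, a membrane-bound protein of growth cones, was at 9288, 10082 and 24004 in NT and 10803, 12147 and 3661 in FL, and Stmn1, which destabilizes microtubules, at 15880, 15861 and 17522 and 16816, 14794 and 5999. FL replicates 1 and 2 lay above 2 of the 3 NT values of Basp1 and to either side of the NT values of replicates 1 and 2 of Stmn1, while FL replicate 3 lay below all NT values of both. Their mRNA was higher in NT, by 1.99 (-1.99) for Basp1 and 1.36 (-1.36) for Stmn1. Tubb2a (-2.73 ± 0.41) shares most of its sequence with Tubb2b, and reads may be split between them.

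Of 17 axon guidance genes, 15 were higher in NT and none in FL (median -2.13; -2.93, -2.65 and -1.51 by replicate), and of 20 synaptic scaffold and vesicle genes, 15 and none (median -1.90). Over all genes, 14.7% were called for NT and 13.5% for FL. Dcc, the netrin receptor, was at 14794, 14379.8 and 11404 in NT and 269, 237 and 541 in FL (-5.36 ± 0.34, limma adjusted p = 4.22e-05). Shank1, a scaffold of the postsynaptic density, was at 2497, 2694 and 2572 and 52.9, 70.3 and 142 (-4.98 ± 0.37). Of 25 ion channels and transmitter receptors, 16 were higher in NT and 1 in FL (median -2.38). In mRNA it was 18 and 4, against 17.9% and 16.3% of all genes. Among them was Hcn3, a pacemaker channel, at 528, 477 and 716 in NT and 1.6, 17 and 22.4 in FL (-5.78 ± 0.79, limma adjusted p = 0.0015). Gabbr1, a subunit of the metabotropic GABA receptor, stood at 6118, 5904 and 9118 in NT and 274, 349.6 and 524 in FL, an RPF difference of -4.22 ± 0.32 beside an mRNA difference of -1.42 (SE 0.13). Its tissues were far apart in RPFs in every replicate, with -4.27 in replicates 1 and 2 and -4.12 in replicate 3. Without replicate 3 the 3 lists had 16, 20 and 20 members called for NT and 0, 0 and 2 for FL, against 36.8% and 39.5% of all genes.

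Hox genes, which encode homeodomain factors that set position along the body axis, parted by their place in the clusters. Of 16 with a symbol, 12 had more RPFs in NT and 3 more in FL, the same numbers with and without replicate 3. Over all genes 14.7% and 13.5% were called, and 36.8% and 39.5% without replicate 3. The median of the 16 was -3.44 (-3.91, -2.57 and -3.40 by replicate). Other Hox genes may be among the genes without a symbol. The 3 for FL were the HoxD genes Hoxd10, Hoxd11 and Hoxd13, which stand towards the 5′ end of the cluster and pattern the distal limb. The 12 for NT included all named members of paralogous groups 2 to 6. Among the named HoxD genes, the order in the cluster was the order of the differences.

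Hoxd13 (chr2:74668310-74671599) stood at 51.3, 96 and 84.1 normalized RPFs in NT and 5896, 6729 and 3724 in FL (6.13 ± 0.34, limma adjusted p = 2.82e-05). Hoxd11 (chr2:74679557-74687016) was at 88.9, 142 and 283 in NT and 1442, 1695 and 1484 in FL (3.32 ± 0.41, limma adjusted p = 8.67e-04). Hoxd10 (chr2:74691924-74695105) was at 297, 375 and 447 and 888.3, 1008 and 639 (1.17 ± 0.29, limma adjusted p = 0.02). The FL values lay above the NT values in all 3 genes, but closely so for Hoxd10 in replicate 3, where the difference was 0.52, and its call was lost without any of the 4 libraries of replicates 1 and 2 (limma adjusted p = 0.071 to 0.098). Hoxd8 overlapped between tissues, at 136, 198 and 168 in NT and 152, 89.5 and 158 in FL (-0.35 ± 0.35, limma adjusted p = 0.46). Hoxd4 was at 1407, 1674 and 1966 in NT and 51.3, 32 and 65.7 in FL (-5.10 ± 0.33, limma adjusted p = 4.81e-05). Hoxd3 was at 1301, 1443 and 1935 and 33.7, 27.7 and 23.9 (-5.72 ± 0.30, limma adjusted p = 2.45e-05). The annotated spans of Hoxd3 and Hoxd4 overlap, but reads were counted on the CDS of 1 isoform per gene. Whether any counted part is shared was not examined.

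A stretch of 30 bases of the homeobox of 4 HoxD genes, about the length of a footprint and coding for part of the helix that contacts DNA, is shown because footprints were kept only where they mapped to 1 gene. In reference order along chromosome 2 (GRCm38, plus strand), bases that differ from Hoxd13 are in capitals:
Hoxd13, chr2:74670065-74670094: accatttggtttcagaatcgaagggtgaag
Hoxd11, chr2:74684052-74684081: aAAatCtggttCcagaatcgCaggAtgaaA
Hoxd10, chr2:74694276-74694305: aAGatttggtttcaAaaCcgCCgAAtgaaA
Hoxd8, chr2:74706660-74706689: aAAatCtggttCcagaaCAgGagAAtgaaA
They differed from Hoxd13 at 7 bases in Hoxd11, at 9 in Hoxd10 and at 10 in Hoxd8, so that a footprint of this stretch has a sequence of its own in each of the 4 genes.

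**Figure D3:**
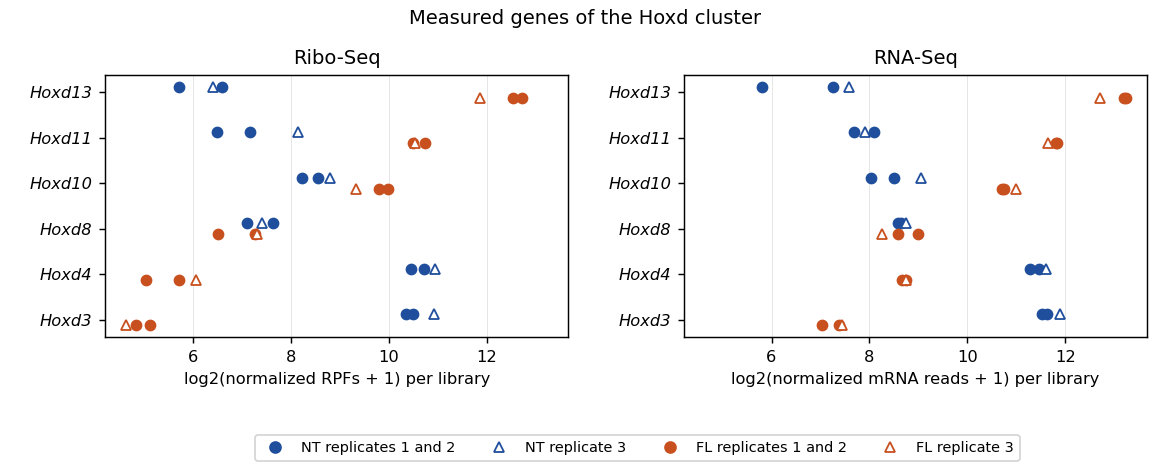
RPFs (left) and mRNA reads (right) per library, as log2(normalized reads + 1), of the 6 Hoxd genes with a symbol in cluster order, with circles for replicates 1 and 2, open triangles for replicate 3, blue for NT and orange for FL. FL values lay above NT values in Hoxd13, Hoxd11 and Hoxd10, overlapped in Hoxd8 and lay below them in Hoxd4 and Hoxd3.

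Outside the HoxD cluster, Hoxa2, a hindbrain gene, was at 1011, 1025 and 1825 in NT and 12.8, 59.7 and 65.7 in FL (-5.02 ± 0.61), and Hoxb3 at 1738, 1778 and 2228 and 99.4, 42.6 and 59.7 (-4.89 ± 0.35). Smaller differences in the NT direction were found for Hoxa9 (-1.02 ± 0.27, limma adjusted p = 0.027), listed among the limb mesenchyme markers too, and for Hoxc6 (-1.24 ± 0.24). The mRNA difference of Hoxa9 was 0.11 (limma adjusted p = 0.65), and its RPF call was lost without any library but FL replicate 3 (limma adjusted p = 0.055 to 0.1).

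In the FL direction, the 12 genes named by rank were higher by 3.99 to 7.26 on the log2 scale. They were the largest of 419 named candidates, and genes without a symbol, described last, reached 6.38. Hoxd13 and the muscle genes Myl4, Mylpf and Tpm2 were among them, and the mRNA of all 12 was also called higher in FL.

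Hoxd13 has been described above. Myl4 (chr11:104550663-104595753), an embryonic myosin light chain, stood at 14.5, 0.8 and 0 in NT and 585, 793 and 217 in FL (7.26 ± 1.03, limma adjusted p = 0.0017). NT rested on few reads and none at all in replicate 3, so the size depends on the added 1, with a range of 6.46 to 8.44 as libraries were left out. Mylpf, a light chain of fast skeletal muscle, was at 135, 112 and 103 in NT and 2839.8, 2979.7 and 919.7 in FL (4.08 ± 0.46), and Tpm2, a tropomyosin of contractile cells, at 121, 139.9 and 258 and 5692, 6241 and 2296 (4.72 ± 0.46). Both were lower in FL replicate 3 than in the other FL libraries yet well above NT.

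Signalling and transcription factor genes made up most of the others. Kremen2 (chr17:23741197-23745833), a Dickkopf receptor that dampens Wnt signalling, was at 6.5, 7.3 and 50.7 in NT and 1283, 1839 and 1018 in FL (6.50 ± 0.72, limma adjusted p = 5.06e-04). Wnt6, a Wnt ligand of the limb ectoderm, was at 43.4, 30.9 and 60.9 and 1424, 1579 and 1091 (4.93 ± 0.33). Mkx, a homeodomain factor of tendon progenitors, was at 16.6, 16.3 and 5.8 and 864, 679.9 and 351 (5.54 ± 0.53). Snai1, a repressor of epithelial genes in mesenchyme, stood at 254.4, 150.4 and 436 in NT and 6602, 7389.6 and 3206 in FL (4.39 ± 0.46), with a difference of 5.15 in replicates 1 and 2 and 2.87 in replicate 3. Pmaip1, the pro-apoptotic BH3 protein Noxa, was at 22.4, 16.3 and 26.1 and 540.4, 544 and 663, with little spread within either tissue (4.71 ± 0.33, limma adjusted p = 5.98e-05). The last 3 were the basic helix-loop-helix gene Atoh8 (4.34 ± 0.44), the glutathione transferase gene Gstm2 (4.00 ± 0.50), which has close paralogs, and Cdc42ep5 (3.99 ± 0.58), an effector of the GTPase Cdc42. Of 7 pro-apoptotic genes, Pmaip1 and Siva1 were called for FL, against 13.5% of all genes. Without replicate 3 it was 5 for FL and 1 for NT, against 39.5% and 36.8% (medians 1.37, 1.39 and 0.16 by replicate).

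Among 18 limb mesenchyme markers, 9 had more RPFs in FL and 2 more in NT, against 13.5% and 14.7% of all genes. Without replicate 3 it was 13 and 2, against 39.5% and 36.8%. The median of the markers was 1.03 (1.57, 1.22 and 1.18 by replicate). In mRNA 12 and 2 were called, against 16.3% and 17.9% of all genes, with a median of 2.26. Their summed share of RPFs was 0.0936% to 0.124% in NT and 0.218% to 0.30% in FL. The list shares Hoxd10, Hoxd11, Hoxd13 and Hoxa9 with the Hox genes. Msx1, a homeodomain factor of distal limb mesenchyme, stood at 502, 569 and 1151 in NT and 7289, 9499.7 and 3624 in FL (3.19 ± 0.45, limma adjusted p = 0.0016). Pdgfra, the PDGF receptor of mesenchyme, was at 1095, 1065 and 969.8 and 6897, 7313 and 23601, highest in FL replicate 3 (3.35 ± 0.46). Lum, a proteoglycan of collagen fibrils, was at 1069.8, 1019.7 and 1026 and 4701, 4143 and 3269.7 (1.94 ± 0.23). The 2 called for NT were Hoxa9, above, and Zbtb16, a zinc finger repressor with a known role in limb patterning, at 553, 655 and 518 in NT and 54.5, 57.6 and 209 in FL (-2.70 ± 0.52, limma adjusted p = 0.007). Sparc, a collagen-binding matrix protein, was not called (0.10 ± 0.33, limma adjusted p = 0.83), with differences of 0.62 in replicates 1 and 2 and -0.94 in replicate 3.

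FGF signalling keeps the limb bud growing, and its induced feedback genes were among the steadiest FL differences. Of 8 FGF target and feedback genes, 6 had more RPFs in FL and none in NT, with and without replicate 3. Over all genes 13.5% and 14.7% were called, and 39.5% and 36.8% without replicate 3. The median of the 8 was 2.69 (2.71, 2.86 and 2.21 by replicate). Dusp6, the phosphatase that switches off ERK, stood at 879, 916 and 1159.7 in NT and 7639, 8080.2 and 5935 in FL (2.87 ± 0.24, limma adjusted p = 1.34e-04). Spry1, a Sprouty inhibitor of receptor signalling, was at 78.1, 82.1 and 56.5 and 665, 748 and 405 (3.02 ± 0.34), and Spry4 at 189, 159 and 126 and 1049, 1253 and 860 (2.73 ± 0.28). The FL values lay above the NT values in every replicate for all of them. The ETS factors Etv4 (2.88 ± 0.38) and Etv5 (2.64 ± 0.28) and the third Sprouty gene Spry2 (2.08 ± 0.29) made up the 6. Neither Spred1 nor Spred2 was called. In mRNA 5 were called for FL, against 16.3% of all genes. The mRNA median was 1.72, with 0.11 in replicate 1 against 2.09 and 1.90 in the others. Only 2 of the 8 symbols did not come from the TE table, and neither was called.

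The receptors themselves differed by member. Fgfr3, expressed in neural progenitors, was at 3661, 3953 and 3817 in NT and 322, 424 and 759.9 in FL (-3.02 ± 0.33, limma adjusted p = 4.97e-04). Fgfr1, the receptor of limb mesenchyme, was at 2081, 2383 and 2956 in NT and 4448, 4953 and 7973 in FL (1.19 ± 0.29, limma adjusted p = 0.02), and Fgfr4 at 79.5, 96.8 and 232 and 329, 369 and 503 (1.69 ± 0.44, limma adjusted p = 0.025). Fgfr2 was not called and turned with the replicate, with -0.59 in replicates 1 and 2 and 0.38 in replicate 3 (limma adjusted p = 0.52). The calls of Fgfr1 and Fgfr4 were lost without NT replicate 1, NT replicate 2 or FL replicate 2, and that of Fgfr4 without FL replicate 1 too (limma adjusted p = 0.057 to 0.096), and Fgfr2 was called for NT without FL replicate 3 (limma adjusted p = 0.025).

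Of 19 other receptor tyrosine kinases, 9 were higher in FL and 4 in NT, and 11 and 5 without replicate 3 (median 1.16, and 0.76, 0.96 and 1.22 by replicate). In mRNA it was 14 and 3, against 16.3% and 17.9% of all genes. For each list of this paragraph, the share of all genes called in RPFs was 13.5% for FL and 14.7% for NT. Without replicate 3 the shares were 39.5% and 36.8%. Ddr2, a collagen receptor of mesenchyme, was at 307, 268 and 213 in NT and 2206, 2138 and 5533 in FL (3.51 ± 0.40), whereas its relative Ddr1 was at 12501, 12756 and 18855 and 1156, 1697 and 2320.1 (-3.12 ± 0.32, limma adjusted p = 3.55e-04). Both lay far apart between tissues, in opposite directions. Mertk, a receptor that helps to clear dying cells, was higher in FL (3.29 ± 0.31), as was Ror2, a Wnt5a receptor (2.38 ± 0.31), and the neurotrophin receptor gene Ntrk2 was higher in NT (-3.17 ± 0.22). Of 10 Eph receptors, 1 was higher in FL and 4 in NT, and without replicate 3 it was 2 and 7 (medians -1.16, -1.25 and -0.08 by replicate). Among those higher in NT was Epha5 (-4.56 ± 0.50), and the 1 for FL was Ephb4, the receptor of veins (2.30 ± 0.31). Of 6 Notch pathway genes, 3 were higher in NT and 1 in FL, and without replicate 3 it was 4 and 1 (medians -1.27, -0.83 and -1.98 by replicate). The 1 for FL was Hes1, the Notch target repressor, at 966, 966 and 1532 in NT and 5763, 7170 and 2898 in FL (2.13 ± 0.38, limma adjusted p = 0.0051). Its mRNA was at 2046, 1337 and 1282 in NT and 1324, 1142 and 1319 in FL, a difference of -0.27 (limma adjusted p = 0.32). Of 5 retinoid and fatty acid binding proteins, Fabp7 was called, for NT, and without replicate 3 it was 4 for NT and 1 for FL (medians -0.59, -0.60 and -2.33 by replicate).

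Extracellular matrix genes had 8 of 25 members with more RPFs in FL and 1 with more in NT, against 13.5% and 14.7% of all genes. Without replicate 3 it was 12 and 8, against 39.5% and 36.8%. The median was 0.63 (0.12, 0.54 and 1.25 by replicate). In mRNA 18 and 2 were called, against 16.3% and 17.9% of all genes (median 1.51). Lox, which crosslinks collagen, stood at 51.3, 66.7 and 103 in NT and 1137, 1405 and 689.8 in FL (3.85 ± 0.38, limma adjusted p = 3.01e-04). Sned1 was at 161, 190.3 and 115 and 771, 853 and 2611 (2.97 ± 0.48), and Ltbp1, which stores latent TGF-beta, at 1059.7, 1178 and 1326 and 3773, 4414 and 11978 (2.30 ± 0.43). In both, FL replicate 3 was the highest library by a wide margin. Vcan, the proteoglycan versican, was not called in RPFs, at 16373, 15408 and 12097 in NT and 12804, 13434 and 44662 in FL (0.44 ± 0.48, limma adjusted p = 0.49), nor was Hmcn1, hemicentin, at 1554, 1713 and 1393 and 1392, 1194 and 9184 (0.68 ± 0.70, limma adjusted p = 0.48). Their FL values lay below the NT values within replicates 1 and 2 and were the highest of all 6 libraries in replicate 3, while their mRNA was called higher in FL, by 2.26 and 2.91.

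Markers of other cell types in the dissected pieces did not move evenly. Of 11 erythroid markers, 4 had more RPFs in FL and 1 in NT, and without replicate 3 it was 5 and 4 (median 0.83; -0.04, 0.81 and 0.90 by replicate). Over all genes, 13.5% and 14.7% were called, and 39.5% and 36.8% without replicate 3. The summed share was 0.223% to 0.282% in NT and 0.388% to 0.616% in FL. Hba-x, the embryonic alpha-like globin, stood at 49354, 48778 and 66360.4 in NT and 128515, 164781 and 84882 in FL (1.16 ± 0.31, limma adjusted p = 0.028), and its call was lost without any of the 4 libraries of replicates 1 and 2 (limma adjusted p = 0.089 to 0.13). Its mRNA difference was 0.18 (limma adjusted p = 0.62). Gypc, a glycophorin of the red cell membrane, was at 88.9, 129 and 131 and 1009, 1157 and 630 (2.97 ± 0.33).

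Of 8 epithelial markers, 4 were higher in FL and none in NT, with and without replicate 3 (median 1.67; 1.27, 1.67 and 2.18 by replicate). For each list of this paragraph, the share of all genes called was 13.5% for FL and 14.7% for NT. Without replicate 3 it was 39.5% and 36.8%. Summed shares of RPFs of the epithelial markers were 0.00743% to 0.00760% in NT and 0.0300% to 0.0376% in FL. Epcam, the epithelial adhesion molecule, stood at 175, 187 and 60.9 in NT and 1899, 1795 and 1215 in FL (3.66 ± 0.45, limma adjusted p = 8.81e-04), and Spint2, a protease inhibitor of epithelia, at 337, 397 and 464 and 4454, 4519 and 2362 (3.19 ± 0.32). In mRNA, NT replicate 1 held 0.0174% on these markers, as much as FL, against 0.0055% and 0.00456% in the other NT libraries. Of 5 measured muscle markers, Mylpf and Myl4 were higher in FL and none in NT, but without replicate 3 it was 2 and 2. Their median was -0.15, with -1.06, -0.70 and 2.80 by replicate, and 3 of them were at least 2-fold higher in NT in replicates 1 and 2 and in FL in replicate 3. These markers had summed shares of 0.00178% to 0.00246% in NT and 0.00908% to 0.0144% in FL, and 3 of the 5 were at 0 in NT replicate 3. Of 3 measured neural crest and glial markers, 1 was higher in FL and 2 in NT, with and without replicate 3. Their median was -2.27 (-1.54, -2.50 and -2.75 by replicate). Ednrb (-3.82 ± 0.27) was among those higher in NT, and the 1 for FL was Erbb3 (1.57 ± 0.44, limma adjusted p = 0.032). The call of Erbb3 was lost without any NT replicate or FL replicate 2 (limma adjusted p = 0.051 to 0.11).

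Macrophage markers differed in RPFs in replicates 1 and 2. Of 11 macrophage markers, 1 had more RPFs in FL and none in NT, against 13.5% and 14.7% of all genes. Without replicate 3 it was 10 and none, against 39.5% and 36.8%, and the median of the markers was 1.70, 1.85 and -0.26 by replicate. C1qb, a complement subunit of macrophages, stood at 171, 186 and 328 in NT and 746, 759 and 293 in FL (1.32 ± 0.45, limma adjusted p = 0.059, and 0.0034 without FL replicate 3). FL replicate 3 fell within the NT range. The mRNA of these markers had 1 call, for NT, against 17.9% of all genes, and a median of -0.30. Of 12 endothelial markers, 1 was called for FL, and without replicate 3 it was 6 for FL and 4 for NT, near the 39.5% and 36.8% of all genes in that fit (medians 0.66, 0.82 and -0.17 by replicate). The VEGF receptor gene Kdr was among the latter, at 2983, 2838 and 2159.9 in NT and 1325, 1590 and 3004 in FL (-0.51 ± 0.34). Summed shares were 0.0358% to 0.0399% in NT and 0.0283% to 0.0398% in FL. The part of these cell types in any other result was not tested.

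The genes of the protein synthesis and respiration machinery had more RPFs in FL mainly in replicates 1 and 2. Of 30 ribosomal protein genes, 12 were called for FL and none for NT, against 13.5% and 14.7% of all genes, and without replicate 3 it was 29 and none, against 39.5% and 36.8%. The median of 1.22 was made of 1.85, 1.84 and 0.13 in replicates 1, 2 and 3, beside an mRNA median of 0.28. Their share of all RPFs was 0.873%, 0.881% and 1.26% in NT and 2.73%, 2.81% and 1.31% in FL, so that both tissues had nearly the same share in replicate 3. Rpl8 showed this in 1 gene, at 21143, 21650.3 and 37412 in NT and 75339, 84732 and 34017 in FL (1.22 ± 0.41, limma adjusted p = 0.058, and 0.002 without FL replicate 3). Rplp1, of the ribosomal stalk, was called at 6929, 7175 and 13231 and 34729.6, 40599 and 16205 (1.71 ± 0.42, limma adjusted p = 0.02), as was Rps25 (1.41 ± 0.33). Both calls were lost without any of the 4 libraries of replicates 1 and 2 (limma adjusted p = 0.068 to 0.081). Ribosomal protein genes have many processed copies in the genome, so the number of uniquely mapped reads is uncertain for each. Rps27, the member not called in either fit, had 17.4, 8.1 and 0 in NT and 0, 12.8 and 19.4 in FL.

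One very small member, Rpl41, shows how little of a gene the count can cover. It has 75 coding bases, and the rule of leaving out the 15 first and 5 last codons keeps codons 16 to 20, in capitals here if the stop codon is not counted among the last, which the methods do not state (chr10:128548390-128548960, minus strand, GRCm38; exons 2 to 4):
Rpl41: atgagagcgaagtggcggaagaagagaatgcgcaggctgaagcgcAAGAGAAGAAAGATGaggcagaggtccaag
Rpl41 stood at 372, 226 and 320.4 normalized RPFs in NT and 1379, 441 and 206 in FL (0.74 ± 0.63, limma adjusted p = 0.38, and 0.04 without FL replicate 3), and FL replicate 1 alone lay far above the rest.

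Mitochondrial genes followed the same replicates. Of 36 mitochondrial ribosomal protein genes, 5 were called for FL, about the share of all genes (13.5%), and, without replicate 3, all 36, against 39.5%, with medians of 1.76, 1.85 and -0.26 by replicate and -0.05 in mRNA. Of 43 genes of the respiratory chain and ATP synthase, 9 were called for FL and none for NT, against 13.5% and 14.7% of all genes. Without replicate 3 it was 42 and 1, against 39.5% and 36.8%. Their medians were 1.54, 1.63 and -0.33 by replicate and -0.07 in mRNA. Uqcr10, a complex III subunit, was the steadiest of those named, at 333, 343 and 590 in NT and 1764, 2072 and 1430.3 in FL (2.09 ± 0.31, limma adjusted p = 0.002). Atp5d, of the ATP synthase, was at 4602, 4657 and 8248 and 21299, 22829 and 7913 (1.48 ± 0.45, limma adjusted p = 0.043), and Mrpl14, of the mitochondrial large subunit, at 755, 849.8 and 1549.6 and 3499, 4105 and 1424 (1.45 ± 0.46, limma adjusted p = 0.047). In the last pair NT and FL were level in replicate 3, and their calls were lost without any of the 4 libraries of replicates 1 and 2 (limma adjusted p = 0.14 to 0.17).

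Cell division genes turned from NT to FL between the replicates. Of 38 genes of cell division and DNA replication, 5 were called for FL and none for NT, against 13.5% and 14.7% of all genes, and without replicate 3, 9 and 29, against 39.5% and 36.8%. The median was -1.74, -1.73 and 1.12 by replicate, and 22 of the 38 were at least 2-fold higher in NT in replicates 1 and 2 and at least 2-fold higher in FL in replicate 3. Their share of RPFs was 0.522%, 0.519% and 0.243% in NT and 0.248%, 0.232% and 0.524% in FL. In mRNA 22 were called for FL and 1 for NT, against 16.3% and 17.9% of all genes, with a median of 0.57. Top2a, the topoisomerase of dividing cells, stood at 21275, 21273 and 7792 in NT and 6752, 6083 and 22056 in FL (-0.65 ± 0.58, limma adjusted p = 0.41, and 0.038 without FL replicate 3). Aspm, a spindle pole protein of neural progenitors, was at 3974, 4254 and 874 and 564, 454 and 1868 (-1.65 ± 0.72, limma adjusted p = 0.12, and 0.019 without FL replicate 3 or 0.035 without NT replicate 3). In both genes replicate 3 was the lowest NT library and the highest FL library. Mki67, the proliferation antigen, went the same way, at 8799, 9011 and 4585 and 3228, 2686 and 6733 (limma adjusted p = 0.15, and 0.01 without FL replicate 3). The shorter members named here did not. Tyms, thymidylate synthase, was at 881, 737.5 and 887 in NT and 2426, 2489.5 and 2139.5 in FL (1.49 ± 0.22, limma adjusted p = 0.0022), and Cks1b, a small cyclin-dependent kinase subunit, at 277, 285 and 251 and 1628, 1202 and 476 (1.85 ± 0.44, limma adjusted p = 0.018), the latter call being lost without any library but FL replicate 3 (limma adjusted p = 0.051 to 0.069).

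Of 27 histone methyltransferases and demethylases, 10 had more RPFs in NT and none in FL, against 14.7% and 13.5% of all genes, and without replicate 3, 26 and none, against 36.8% and 39.5%, with medians of -2.29, -2.32 and 0.33 by replicate and -0.11 in mRNA. Kmt2c, a histone H3K4 methyltransferase, stood at 5426, 5524 and 1853 in NT and 385, 362 and 2016 in FL (-2.54 ± 0.71, limma adjusted p = 0.033), and its relative Kmt2a at 7887, 8413 and 3750.2 and 962, 910.1 and 3004 (-2.19 ± 0.52, limma adjusted p = 0.018). For Kmt2c the tissues were level in replicate 3, with NT lower and FL higher than in the other replicates. Both calls were lost without any of the 4 libraries of replicates 1 and 2 (limma adjusted p = 0.065 to 0.12). Kmt2d was at 16567, 17527 and 9717 and 1895, 2046 and 10897 and missed the threshold (-2.02 ± 0.65, limma adjusted p = 0.05 before and 0.00022 after leaving out FL replicate 3).

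Shh pathway genes, which pattern both tissues, gave 1 call for FL and 2 for NT of 11, against 13.5% and 14.7% of all genes. Without replicate 3 they gave 2 and 6, against 39.5% and 36.8%. Their medians were -1.23, -0.87 and 0.82 by replicate, where the mRNA gave 7 and 1 (median 0.62), against 16.3% and 17.9% of all genes. Gli1, the transcriptional readout of the pathway, was at 181, 206 and 183 in NT and 519.5, 561 and 838 in FL and did not turn (1.72 ± 0.28, limma adjusted p = 0.0034). Ptch1, the Shh receptor, was at 2966, 3169.7 and 1922 and 346, 405 and 1916 (-2.02 ± 0.62, limma adjusted p = 0.043), nearly level in replicate 3. Its call was lost without any library but FL replicate 3 (limma adjusted p = 0.067 to 0.15), and its mRNA difference was -0.30 (limma adjusted p = 0.13). Gli3, the factor processed to a repressor in limb, was at 2814, 3186 and 1554 and 874, 1206 and 4543 (-0.51 ± 0.60, limma adjusted p = 0.53, and 0.016 without FL replicate 3). Dync2h1, the motor of ciliary transport, was at 3028, 2934 and 700.2 and 152, 232 and 1196 (-2.40 ± 0.84, limma adjusted p = 0.066, 0.0038 without FL replicate 3 and 0.042 without NT replicate 3). Of 12 immediate early genes, 1 was called, for NT, and 5 for FL and 2 for NT without replicate 3, where 39.5% and 36.8% of all genes were called.

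In replicates 1 and 2, the RPF differences of named genes followed a feature that no list had used, the length of the CDS. Among 3224 named genes matched to 1 coding gene, the 350 with under 150 codons had 121 calls for FL and 6 for NT. The 705 with 1200 codons or more had 17 and 197. Over all genes, 13.5% were called for FL and 14.7% for NT. The medians of the shortest class were 1.6, 1.61 and -0.07 in replicates 1, 2 and 3, and those of the longest -2.24, -2.15 and 0.60. The classes between fell in order in replicates 1 and 2. In mRNA the medians of all classes lay between -0.30 and 0.37. The same order was present among genes whose symbol did not come from the TE table, with 0.72, 0.65 and 0.01 in the shortest class (38 genes) and -1.50, -1.36 and 0.59 in the longest (198 genes). Calls among these were 6 for FL and 2 for NT in the shortest class, and 8 and 45 in the longest. These values are descriptions, since genes are not replicates. Length was not tested as a term in any fit, and it moved with the tissue in 2 replicates of 3, so for a short gene called for FL or a long gene called for NT the share that length class and replicate hold in the difference was not tested.

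**Figure D4:**
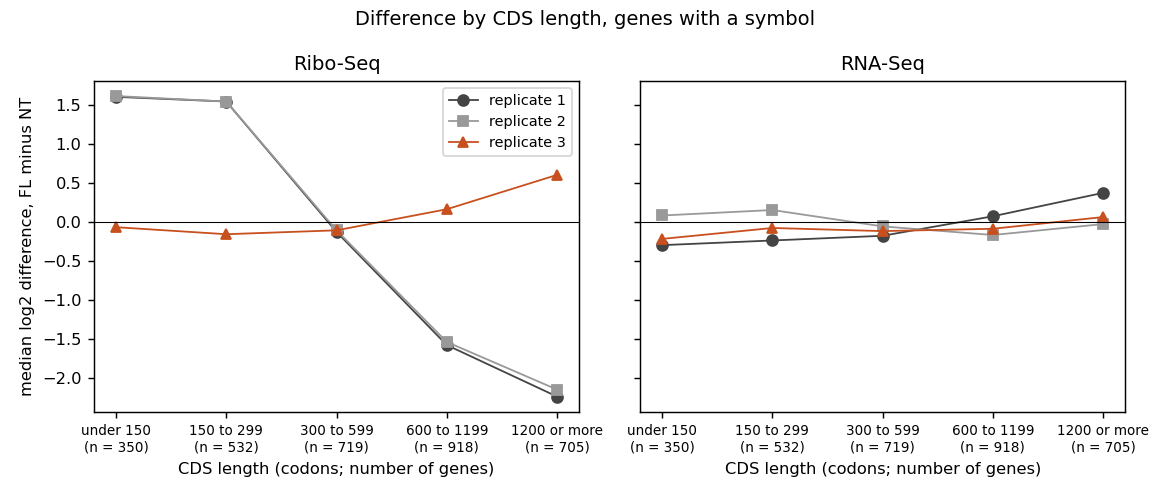
Median log2 difference (FL minus NT) of named genes in 5 classes of CDS length, for RPFs (left) and mRNA (right), with 1 line per replicate. In replicates 1 and 2 the RPF medians ran from about 1.6 in the shortest class to -2.24 and -2.15 in the longest, while replicate 3 stayed between -0.16 and 0.60.

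Named genes whose differences kept their direction in every replicate came from both ends of this range. Fabp7 (132 codons) and Reln (3461 codons) were both far higher in NT in every replicate, and Pmaip1 (103 codons) and Pdgfra (1089 codons) both higher in FL. The size was not steady for the long genes Reln and Pdgfra, whose FL values were highest in replicate 3. Across the 28 lists, the median of RPFs in replicate 3 kept the direction of replicates 1 and 2 for, among others, the neural, Hox, Notch, limb mesenchyme, receptor tyrosine kinase, epithelial and FGF target lists, and changed it for the mitochondrial, respiratory, macrophage, endothelial, cell division, histone modifier, Shh and muscle lists. The mRNA medians of the cell division and Shh lists were above 0 in all 3 replicates.

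**Figure D5:**
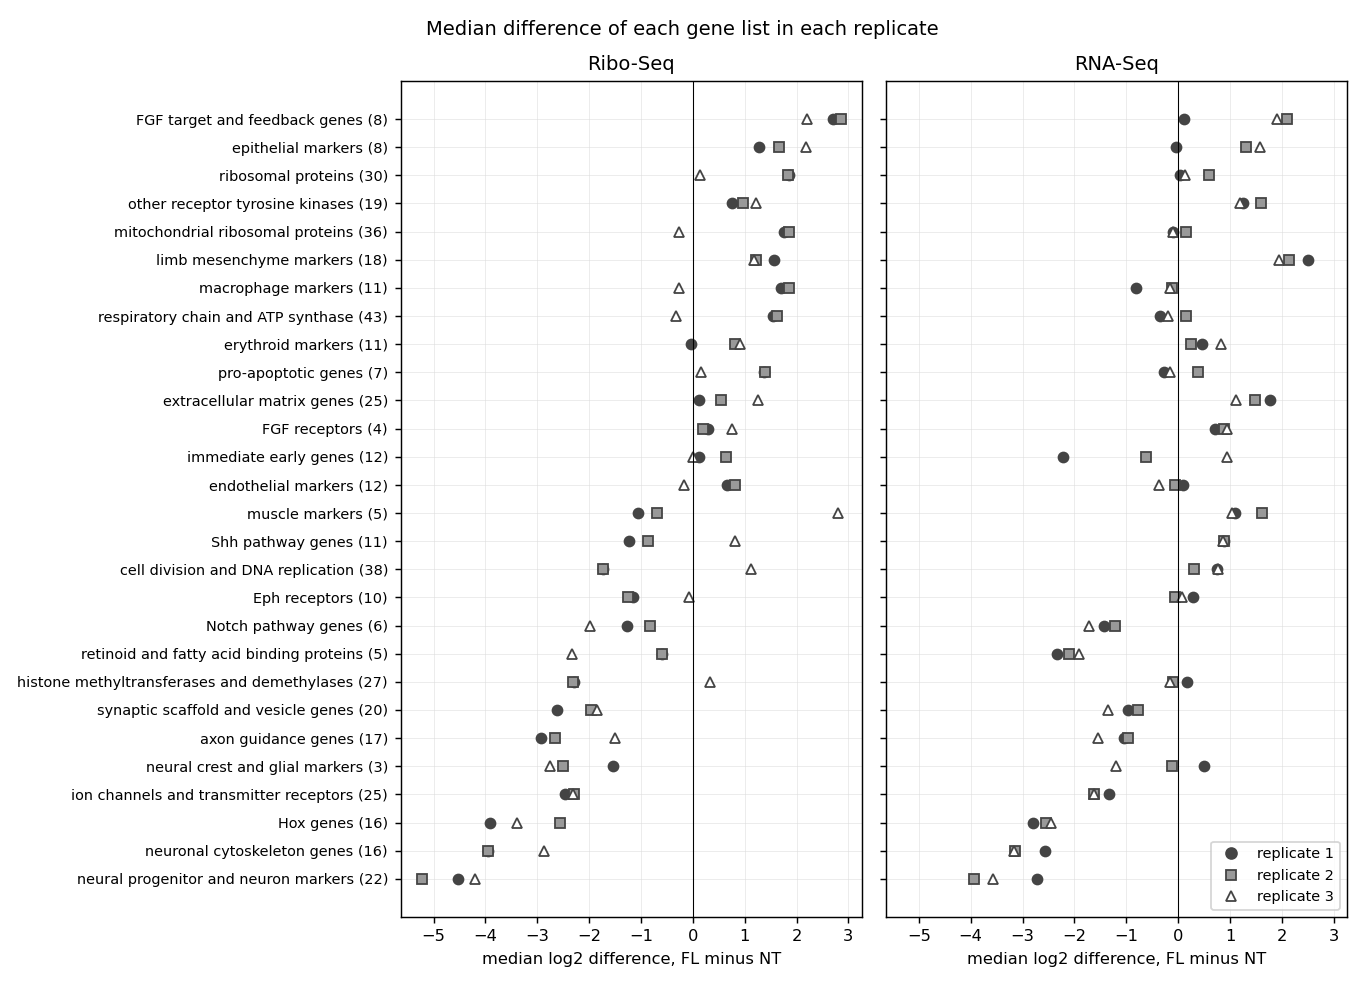
Median log2 difference (FL minus NT) of each of 28 gene lists in each replicate, for RPFs (left) and mRNA (right), with the number of measured genes in brackets. In RPFs the 3 replicates lay close for FGF targets (2.21 to 2.86) and neural markers (-5.23 to -4.20), and replicate 3 lay apart for cell division (1.12 against -1.74 and -1.73) and ribosomal protein genes (0.13 against 1.85 and 1.84).

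Genes without a symbol also held large differences. Transcript uc008wck.1 stood at 4096, 4531 and 8675 in NT and 38.5, 12.8 and 14.9 in FL, and uc008olt.1 at 6033, 6031 and 13749.6 and 89.8, 44.8 and 37.3, log2 differences of -8.05 and -7.19. In the other direction, uc008lpz.1 was at 106, 124 and 193 in NT and 15288, 15924 and 6044 in FL, and uc008jcy.2 at 65.8, 74.8 and 161 and 7990.1, 10126 and 3598, differences of 6.38 and 6.15. In all 4 the tissues were apart, as the rule for choosing them requires (called, no overlap, mean of at least 100 normalized reads).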

How the data were processed

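Ribo-Seq and RNA-Seq of NT and FL were taken from 1 deposited table of 11231 genes. Adapters were trimmed with cutadapt, reads on rRNA, tRNA and snRNA were discarded, and the rest were aligned with Bowtie2 to mm10 transcripts, 1 canonical isoform per UCSC known gene, keeping unique alignments (tool versions are not given in the sources used here). RPFs were assigned by the A site and counted on the CDS after leaving out 15 codons at its start and 5 at its end. The deposited signal values are these read counts, which the authors scaled by DESeq's effective library sizes over the 12 libraries of the table. In each library, 100.0% of values were whole multiples of a single step within 0.02 reads, and dividing by it gave the depth. Counting over genes and a CDS window leaves depth to limit precision for genes with few reads. The mesoderm table was normalized separately and was not used here.

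Differences were tested with limma 3.58.1 (R 4.3.3, variance trend) on log2(normalized reads + 1) of the 6 RPF libraries, FL minus NT, without a block, and called at a Benjamini-Hochberg adjusted p under 0.05. The same fit on the 6 RNA-Seq libraries, whose cells came from the same preparations, is given beside it. Named were the 12 largest differences per direction (called, no overlap, mean of at least 100 normalized reads) and members of the gene lists. Members and lists were chosen with earlier results of these data known. Symbols came from the study's supplementary tables, which were at hand in part. They were matched by name to GENCODE M21 (GRCm38, 98.3% matched) for CDS length, position and sequence. Alternatives used edgeR 4.0.16 and DESeq2 1.42.0 on recovered reads. The fits were run on simulated reads too, drawn independently for each library and without a shift of any replicate. That simulation cannot show how the fits behave with a replicate that stands apart. Scripts ran in Python 3.11.15 with numpy 2.4.6, pandas 2.3.3 and matplotlib 3.10.9.

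Same-numbered NT and FL libraries did not deviate together from their group means (r = -0.29, -0.5 and -0.58 for replicates 1, 2 and 3 in Ribo-Seq, and -0.02, -0.22 and -0.24 in RNA-Seq), and the numbers were not taken to pair the samples. These values do not show whether same-numbered libraries came from the same embryos.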

Additional observations from a re-analysis of the deposited data

How the results depend on the processing

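The counts of genes with more RPFs in FL (1520) and in NT (1654) moved with every replicate number left out. With libraries left out, they ranged from 352 to 4434 in FL and from 592 to 4137 in NT. Omitting both libraries of replicate 1 gave 352 and 592, of replicate 2 gave 375 and 652, and of replicate 3 gave 4434 and 4137. Single libraries that moved the counts by over 1.5 times were NT replicate 1 (649 and 960), NT replicate 2 (660 and 937), FL replicate 1 (741 and 1055), FL replicate 2 (630 and 985) and FL replicate 3 (3438 and 3314), while omitting NT replicate 3 gave 1393 and 1491. One fit of all 12 libraries gave 2534 and 2551 genes. The replicate block, which treats the numbers as pairs although same-numbered libraries did not deviate together, gave 519 and 789 genes. NT replicate 3 deviated with FL replicate 2 (r = 0.59) and NT replicate 1 with FL replicate 3 (r = 0.49), and no sample was best matched by its own number. edgeR gave 1445 and 1587, DESeq2 2078 and 2024, median centring 1739 and 1496, all within 1.5 times, as were the counts under other pseudocounts, filters on low values, no variance trend and a 2-fold minimum. For mRNA, the 1836 genes in FL became 1162 in the fit of all 12 libraries and 959 with a 2-fold minimum, and the 2012 in NT became 1143 with that minimum. Left-out libraries gave 1009 to 2403 in FL and 1249 to 2433 in NT, the lowest of each without replicate 3. The cause of these shifts was not tested.

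Of 101 genes given with RPF values, none reversed under another pseudocount, filter, scaling, tool, variance model or block. The block took 14 calls, edgeR 2 and the fit without a variance trend 3, and DESeq2 added 5. Without replicate 3, 84 were unchanged, 12 more were called and 5 reversed. With libraries left out, reversals took Hes6 from -1.07 to 0.21, Basp1 from -1.25 to 0.24, Hoxd8 from -0.61 to 0.04, Sparc from -0.19 to 0.62, Rps27 from -1.80 to 2.47, Gli3 from -1.54 to 0.07, Vcan from -0.28 to 0.84 and Hmcn1 from -0.34 to 1.28. Of these, Basp1, Gli3, Sparc, Vcan and Hmcn1 passed the threshold in the fit without replicate 3. Without replicate 3, the medians of 26 of 28 lists moved by less than the SD of the 3 replicate medians. That SD includes replicate 3 itself, so the comparison cannot show that the lists are steady. The cell division list had a median of -0.74 with all replicates and of -1.72 without replicate 3. Depth limits genes with few RPFs, as Myl4 in NT and Rps27 in both tissues.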
